A study of Mus musculus with 21 samples.

Results

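Transcripts of 9 genes of transforming growth factor beta (TGF-beta) signalling were followed in whole mouse liver by RNA-seq. They were taken by name out of 55418 gene symbols: the ligand genes Tgfb1, Tgfb2 and Tgfb3, the latent TGF-beta binding protein genes Ltbp1 and Ltbp2, the receptor genes Tgfbr1 and Tgfbr2, the inhibitory Smad gene Smad7 and the target gene Tgfbi. The livers came from mice whose hepatocytes lack Mboat7 (KO) and from mice labelled Mboat7 wildtype (WT). Mice were fed a diet high in fat, low in methionine and deficient in choline (HFCDD in the labels) for 6 weeks from an age of 6 to 8 weeks, or were kept on chow and were 10 weeks old. There were 4 KO and 4 WT livers on HFCDD, and 7 KO and 6 WT livers on chow, each with its own animal number. What drove the hepatocyte deletion, and the sex and strain of the mice, are not given in the sources used here. HFCDD and chow mice also differed in age and carried animal numbers from separate ranges, so diet, age and any difference between these series of animals cannot be told apart.

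TGF-beta is secreted in a latent form, held inactive by its own propeptide, which is bound to a latent TGF-beta binding protein and so to the matrix. Once released, the ligand binds the type II receptor, which recruits and phosphorylates the type I receptor, and this in turn phosphorylates Smad2 and Smad3. These move with Smad4 to the nucleus and act on target genes, one of which encodes Smad7, an inhibitor that blocks the type I receptor. In liver the pathway is known for its action on hepatic stellate cells, which it drives towards matrix-producing myofibroblasts, and for slowing hepatocyte growth.

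The sequences before 4 of the genes are shown because Tgfb2, Ltbp1 and Ltbp2 varied together among livers of a group (described further on), while Tgfb1 did not vary with them. Tgfb3 also varied with them, but Tgfb3 and Smad7 were not among the 7 genes searched or shown. The joint variation was weaker without KO chow replicates 1 and 7. They are RefSeq sequences of the mouse build GRCm38.p6, written 5′ to 3′ on the gene's own strand and ending before the annotated start. Capitals mark CAGAC, or GTCTG where it lies on the other strand, the core of the element that Smad3 and Smad4 bind.
Tgfb1, chr7:25686752-25687001, plus strand: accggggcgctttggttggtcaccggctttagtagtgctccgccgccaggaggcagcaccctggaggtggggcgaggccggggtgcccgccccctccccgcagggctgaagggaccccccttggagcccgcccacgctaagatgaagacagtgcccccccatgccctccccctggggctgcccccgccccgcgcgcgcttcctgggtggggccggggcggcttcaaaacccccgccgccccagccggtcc
Tgfb2, chr1:186705990-186706239, minus strand: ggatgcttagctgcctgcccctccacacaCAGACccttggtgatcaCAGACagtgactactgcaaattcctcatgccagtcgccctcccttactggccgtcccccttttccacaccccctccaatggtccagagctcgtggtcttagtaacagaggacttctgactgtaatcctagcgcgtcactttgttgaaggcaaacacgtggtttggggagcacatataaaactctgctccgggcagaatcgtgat
Ltbp1, chr17:75005279-75005528, plus strand: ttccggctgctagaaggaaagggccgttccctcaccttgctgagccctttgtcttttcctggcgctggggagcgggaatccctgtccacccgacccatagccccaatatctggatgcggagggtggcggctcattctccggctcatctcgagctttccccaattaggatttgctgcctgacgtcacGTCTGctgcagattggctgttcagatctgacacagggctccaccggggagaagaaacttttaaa
Ltbp2, chr12:84876533-84876741, minus strand: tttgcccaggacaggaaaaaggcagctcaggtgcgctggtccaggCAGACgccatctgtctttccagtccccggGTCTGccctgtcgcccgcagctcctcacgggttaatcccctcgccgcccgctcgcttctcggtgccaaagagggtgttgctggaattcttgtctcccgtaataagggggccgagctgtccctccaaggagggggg
In the window of 250 bases before to 50 after a start, this motif occurred 0 times for Tgfb1, 2 times for Tgfb2, once for the first start of Ltbp1 and 3 times for Ltbp2, of which 2 fall in the stretch shown. Of the others, Tgfbr1 had 0 matches at its first start, Tgfbr2 had 1 and Tgfbi 2. A second start had 2 matches for Ltbp1 and 1 for Tgfbr1. So short a motif was present in 49.6% of 32851 promoter windows of the same length. The palindrome GTCTAGAC, present in 0.213% of windows, and the AP-1 motif TGANTCA, present in 7.81%, were absent from every window searched for these genes. All motifs were searched on both strands, and a match describes letters, not binding. Whether the motif has a part in the joint variation was not tested.

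Libraries held 22617598 to 25822972 counts on HFCDD and 17502231 to 23058789 on chow. Of all symbols, 15677 had enough counts to be tested, the 9 genes among them. Values are given as CPM, counts scaled to library size, with TMM factors for composition. Mboat7 averaged 18.9 CPM ± 2.24 in KO and 36.3 CPM ± 1.47 in WT on HFCDD (SD, n = 4 each), and 21.3 CPM ± 1.77 in 7 KO and 36.2 CPM ± 2.72 in 6 WT livers on chow, with no overlap on either diet. Hepatocyte markers were abundant in every library, their summed level ranging from 85620 to 134900 CPM. KO chow replicates 1 and 7 stood apart: mucosa markers (Dmbt1 and 5 others) summed to 125.9 and 63.5 CPM there and to at most 0.695 CPM in the other KO chow livers, and skeletal muscle markers summed to 1451 CPM in replicate 7 alone. WT chow replicates 3 and 5 held 47.5 and 31.3 CPM of the mucosa markers. Results of the 9 genes on chow are therefore also given without KO chow replicates 1 and 7 where that moves them.

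Compared per kilobase of exon, Tgfbi and Tgfbr1 had the highest means of the 9 transcripts in all 4 groups, and Tgfb2 had the lowest. Tgfbi averaged 49.6 CPM per kb ± 6.91 in KO and 39.7 ± 4.99 in WT on HFCDD (SD, n = 4 each), and 9.66 ± 0.876 in 7 KO and 9.08 ± 1.54 in 6 WT livers on chow. Tgfbr1 followed with 11.1 CPM per kb ± 1.44 and 9.85 ± 0.265 in KO and WT on HFCDD, and 6.23 ± 0.268 and 5.97 ± 0.557 in KO and WT on chow. Smad7 was the fifth on HFCDD, with 2.96 CPM per kb ± 1.60 in KO and 2.62 ± 0.468 in WT. On chow it was the third, with 5.49 CPM per kb ± 2.04 in KO and 4.68 ± 1.44 in WT, and its range there overlapped that of Tgfbr1. Neighbours in the order often overlapped as well: Tgfb1 and Tgfbr2 did so in WT livers on HFCDD and in both genotypes on chow, and Ltbp1 and Tgfb2, the bottom pair in KO livers on HFCDD, did so there. In WT livers on chow the bottom pair, Ltbp2 (0.126 CPM per kb) and Tgfb2 (0.118), overlapped, with Ltbp2 above Tgfb2 in 3 of 6 livers.

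Tgfb1 made up most of the ligand transcripts per length in every group. Its mean share of the sum of the 3 ligands was 75.3% ± 4.09 in KO and 81.9% ± 4.21 in WT on HFCDD (SD, n = 4 each), and 75.7% ± 9.58 in 7 KO and 76.8% ± 7.62 in 6 WT livers on chow. Tgfb3 came next, with mean shares of 15.9% and 11.9% in KO and WT on HFCDD and 20.3% and 18.8% in KO and WT on chow. Tgfb2 held 8.82% and 6.15% in KO and WT on HFCDD, and 4.03% and 4.36% in KO and WT on chow.

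**Figure D1:**
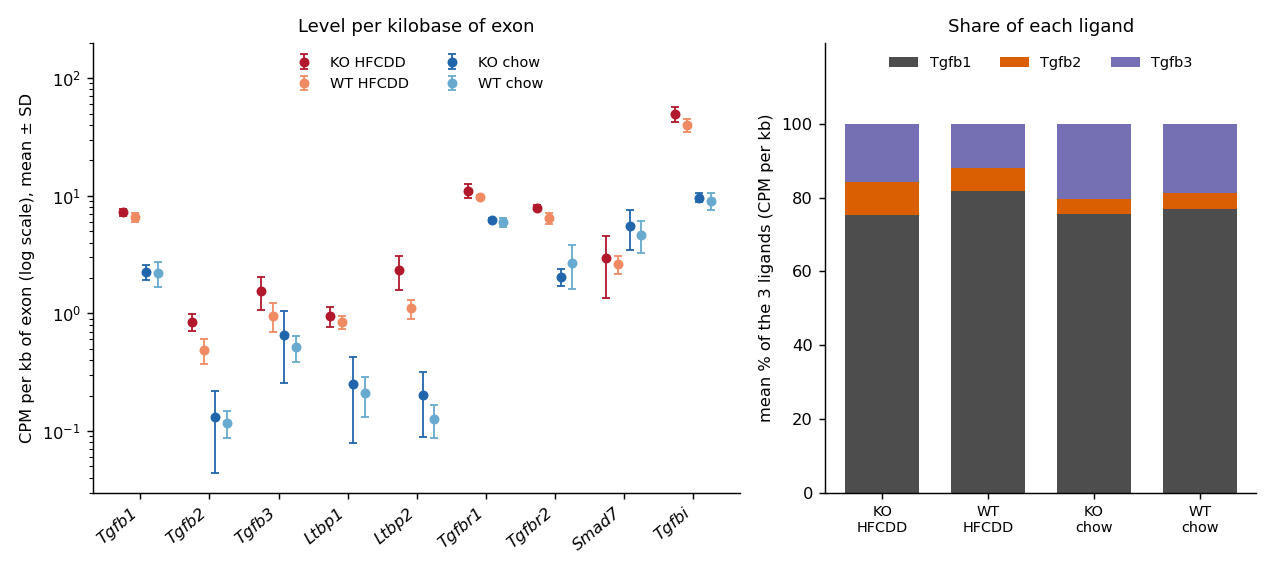
Left, mean level of each transcript in CPM per kilobase of exon (log axis, bars SD) in KO and WT livers on HFCDD (n = 4 each) and on chow (n = 7 and 6). Right, mean share of each ligand in the summed ligand level per kilobase: Tgfb1 holds 75.3% to 81.9% in every group.

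The first comparison asked how the diet moved these transcripts in each genotype. In KO livers 8 of the 9 genes were called higher on HFCDD than on chow and Smad7 was called lower. In WT livers the same count was found: 8 higher, and Smad7 lower. A call is an adjusted p under 0.05 by edgeR's quasi-likelihood test with Benjamini-Hochberg adjustment over all 15677 genes. Much of the transcriptome moved with diet, so these counts have to be read against the background. In KO 33.7% of all tested genes were called higher and 36.0% lower. In WT 29.0% were called higher and 33.6% lower. The median log2 fold change of the 9 genes was 1.91 in KO and 1.58 in WT, beside -0.02 and -0.05 over all tested genes. For 7 of the 9 genes every HFCDD liver lay above every chow liver in KO, against 25.7% of all tested genes, and the count was again 7 of 9 in WT, against 23.1% of all tested genes.

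**Figure D2:**
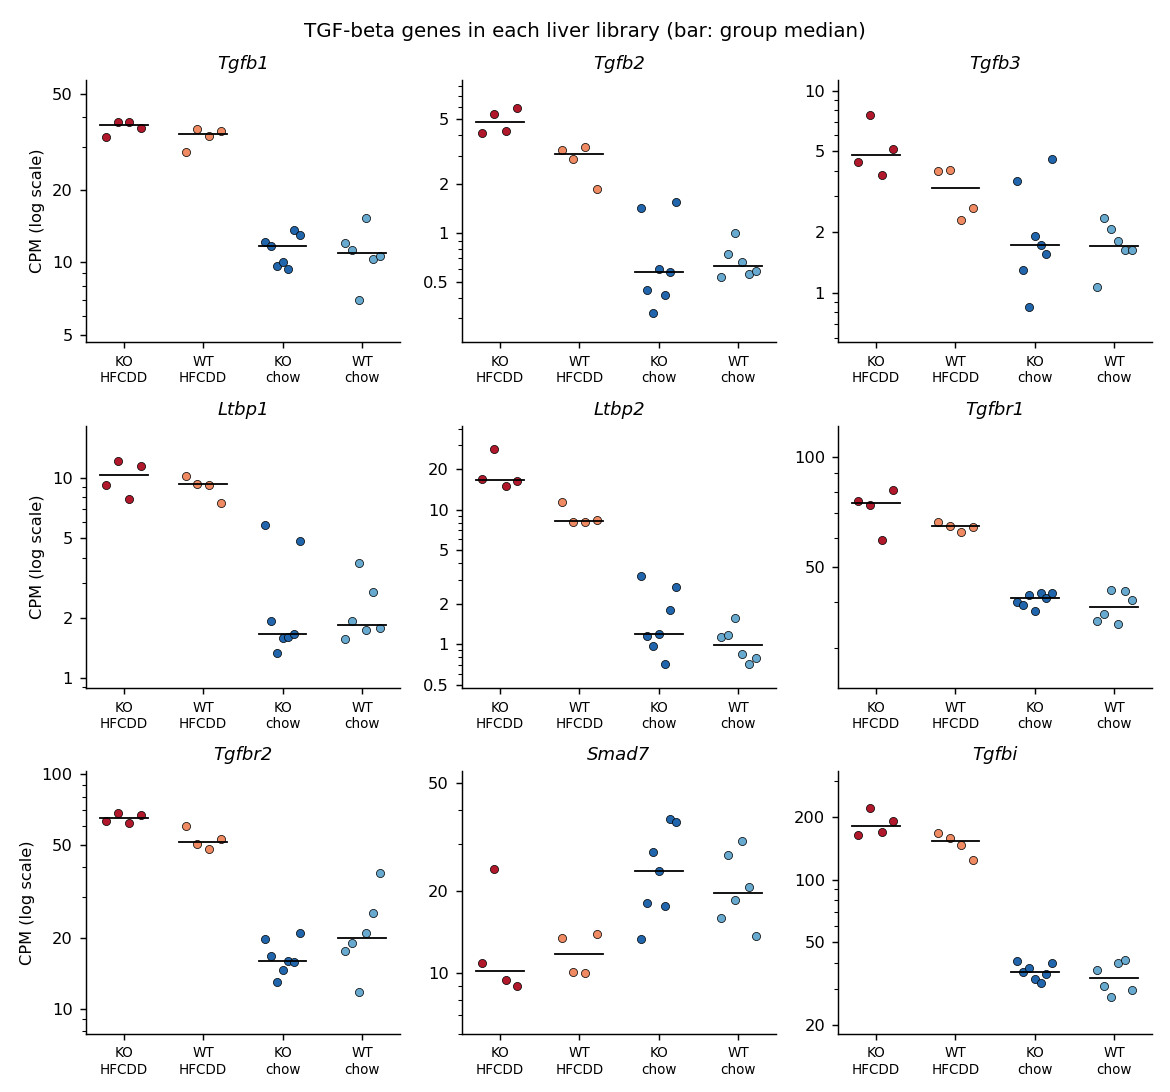
CPM of each of the 9 genes in every library (log axes), by group, with the group median as a bar. HFCDD livers lie above all chow livers of their genotype for 7 genes; Tgfb3 and Smad7 overlap, and Smad7 is the 1 gene with lower medians on HFCDD.

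Among the ligands, Tgfb1, the form made most widely by immune and other cells, had 33.1, 38.1, 38.1 and 36.1 CPM in the 4 KO livers and 28.8, 35.6, 33.2 and 35.1 CPM in the 4 WT livers on HFCDD. On chow it ranged from 9.41 to 13.7 CPM (median 11.7) in 7 KO livers and from 6.99 to 15.2 CPM (median 10.9) in 6 WT livers. Each HFCDD liver was well above each chow liver, and KO and WT overlapped on both diets. Tgfb1 rose with HFCDD by a log2 fold change of 1.68 (edgeR adjusted p = 1.3e-10, SE 0.13) in KO and 1.58 (edgeR adjusted p = 1.3e-09, SE 0.14) in WT, about 3.19-fold and 3.0-fold.

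Tgfb2, a ligand that depends less on integrins for its release because its propeptide lacks their binding motif, had 4.13, 5.40, 4.27 and 5.85 CPM in KO livers and 3.25, 2.85, 3.39 and 1.86 CPM in WT livers on HFCDD. On chow it was near 1 CPM or below, ranging from 0.321 to 1.55 CPM (median 0.580) in KO and from 0.537 to 1.01 CPM (median 0.625) in WT, which is 6 to 34 and 11 to 18 reads per library. All HFCDD livers lay above all chow livers, and on HFCDD all KO livers lay above all WT livers. With diet it rose 6.27-fold in KO (log2 fold change 2.65, edgeR adjusted p = 6.6e-08, SE 0.31) and 4.15-fold in WT (2.05, edgeR adjusted p = 1.2e-05, SE 0.33).

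Tgfb3 had 4.45, 7.54, 3.80 and 5.14 CPM in KO livers and 4.00, 4.03, 2.30 and 2.63 CPM in WT livers on HFCDD. On chow it ranged from 0.856 to 4.61 CPM (median 1.73) in KO and from 1.07 to 2.35 CPM (median 1.71) in WT. The diets overlapped in both genotypes, in KO through chow replicate 7 at 4.61 CPM and in WT through 1 HFCDD liver at 2.30 CPM. Its log2 fold change with HFCDD was 1.22 (edgeR adjusted p = 0.0017, SE 0.32) in KO and 0.89 (edgeR adjusted p = 0.029, SE 0.34) in WT. The WT call was lost when WT HFCDD replicate 1 or 2 or WT chow replicate 1 was left out (edgeR adjusted p = 0.084, 0.087 and 0.063). Without KO chow replicates 1 and 7 the change in KO was 1.83 (edgeR adjusted p = 1.8e-06). Exons of Tgfb3 overlap genes on the opposite strand over 420 bases, those of Ltbp2 over 764 and those of Tgfb2 over 124, and with no stated strand setting such reads cannot be told apart.

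Of the latent binding proteins, Ltbp2, a matrix protein of the family that does not itself bind latent TGF-beta, had 16.9, 28.1, 14.9 and 16.2 CPM in KO livers and 11.5, 8.13, 8.11 and 8.31 CPM in WT livers on HFCDD. Chow livers ranged from 0.714 to 3.20 CPM (median 1.20) in KO and from 0.709 to 1.57 CPM (median 0.986) in WT. All HFCDD livers were above all chow livers, and all KO livers above all WT livers on HFCDD. The diet change was 11.2-fold in KO (log2 fold change 3.48, edgeR adjusted p = 4.9e-10, SE 0.28) and 8.71-fold in WT (3.12, edgeR adjusted p = 2.2e-08, SE 0.31), the largest of the 9 genes in both genotypes.

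Ltbp1, which tethers latent TGF-beta to the matrix, had 9.25, 12.2, 7.86 and 11.5 CPM in KO livers and 10.2, 9.34, 9.28 and 7.46 CPM in WT livers on HFCDD. In chow livers the range was from 1.34 to 5.81 CPM (median 1.65) in KO and from 1.56 to 3.75 CPM (median 1.84) in WT. The genotypes overlapped on both diets, and the diets did not overlap. Ltbp1 rose with HFCDD by 1.91 on the log2 scale in KO (edgeR adjusted p = 3e-05, SE 0.33) and by 2.02 in WT (edgeR adjusted p = 4.2e-05, SE 0.35). Without KO chow replicates 1 and 7, at 5.81 and 4.84 CPM, the change in KO was 2.64, and that of Ltbp2 was 4.0 and that of Tgfb2 3.35.

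Of the receptors, Tgfbr2, the type II receptor that binds the ligand first, had larger log2 fold changes with diet than Tgfbr1. It had 62.9, 68.3, 62.0 and 66.6 CPM in KO livers and 59.9, 50.3, 47.6 and 52.7 CPM in WT livers on HFCDD. On chow the values ran from 13.1 to 20.9 CPM (median 15.9) in KO and, more widely, from 11.7 to 37.7 CPM (median 20.04) in WT. The diets did not overlap in either genotype, and on HFCDD the KO livers lay above the WT livers. Tgfbr2 rose 3.88-fold in KO (log2 fold change 1.96, edgeR adjusted p = 1.7e-08, SE 0.19) and 2.37-fold in WT (1.25, edgeR adjusted p = 1.7e-05, SE 0.20).

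Tgfbr1, the type I receptor kinase, had the smallest SD of log2 CPM of the 9 genes within every group but KO on HFCDD. It had 75.5, 73.7, 59.0 and 81.1 CPM in KO livers and 66.3, 64.7, 62.1 and 64.2 CPM in WT livers on HFCDD. On chow it ranged from 37.8 to 42.5 CPM (median 41.2) in KO and from 35.0 to 43.1 CPM (median 38.8) in WT. With HFCDD it rose 1.78-fold in KO (log2 fold change 0.83, edgeR adjusted p = 2e-09, SE 0.08) and 1.65-fold in WT (0.72, edgeR adjusted p = 5.5e-08, SE 0.08).

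The balance of the 2 receptor transcripts was measured as the log2 ratio of Tgfbr1 to Tgfbr2 counts within each library. It averaged 0.47 ± 0.16 on HFCDD and 1.63 ± 0.23 on chow in KO (SD, n = 4 and 7), with no overlap (0.26 to 0.61 on HFCDD, 1.34 to 2.0 on chow). The difference of -1.15 had an exact two-sided permutation p of 0.00606, the smallest that 4 against 7 livers allow, and 0.0727 after adjustment over the 12 ratio tests run. In WT it averaged 0.62 ± 0.11 on HFCDD and 1.23 ± 0.57 on chow (SD, n = 4 and 6), a difference of -0.61 (exact permutation p = 0.0476, adjusted 0.16), and the ranges overlapped. The ratio of Tgfb2 to Tgfb1 was 1.17 higher on the log2 scale on HFCDD than on chow in KO (exact permutation p = 0.0242, adjusted 0.145) and 0.40 higher in WT (exact permutation p = 0.324, adjusted 0.432). None of the 12 ratio tests passed after adjustment, the ratio of Tgfb3 to Tgfb1 included, whose adjusted p-values from exact permutation tests ran from 0.16 to 0.802. With so few livers a single ratio could hardly pass. The smallest exact permutation p possible was 0.0286 for 4 against 4 livers and 0.00952 for 4 against 6.

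Smad7 was the 1 gene of the 9 that fell with diet. It had 10.9, 24.1, 9.42 and 8.99 CPM in KO livers and 13.4, 10.1, 10.0 and 13.9 CPM in WT livers on HFCDD. Chow livers ran from 13.4 to 36.9 CPM (median 23.7) in KO and from 13.8 to 30.5 CPM (median 19.7) in WT. In KO, 3 of 4 HFCDD livers lay below every chow liver and replicate 2 lay among them. In WT, 3 of 4 lay below every chow liver and replicate 4, at 13.9 CPM, just above the lowest. The log2 fold change was -0.89 (edgeR adjusted p = 0.018, SE 0.32) in KO, or 1.86-fold lower, and -0.83 (edgeR adjusted p = 0.034, SE 0.33) in WT, or 1.78-fold lower. Both calls were narrow. Without KO HFCDD replicate 2 the change in KO was -1.34 (edgeR adjusted p = 0.00083), but leaving out replicate 1, 3 or 4 of that group gave edgeR adjusted p-values of 0.056, 0.068 and 0.069, and a fit to the 2 KO groups alone gave 0.052. The WT call was lost without WT HFCDD replicate 2 or 3, WT chow replicate 2, 4 or 5, or KO chow replicate 3 (edgeR adjusted p between 0.05 and 0.097). Scaling by library totals alone, which raised the median of all genes by 0.18 in KO and 0.16 in WT on the log2 scale, gave -0.71 (edgeR adjusted p = 0.056) in KO and -0.67 (edgeR adjusted p = 0.085) in WT.

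Tgfbi, a secreted matrix protein named for its induction by TGF-beta, had 164.4, 221.8, 169.9 and 192.1 CPM in KO livers and 168.6, 158.3, 147.6 and 124.7 CPM in WT livers on HFCDD. On chow levels ran from 31.7 to 40.9 CPM (median 36.1) in KO and from 27.3 to 41.4 CPM (median 33.8) in WT. The diets lay far apart and the genotypes overlapped on each. Tgfbi rose 5.13-fold in KO (log2 fold change 2.36, edgeR adjusted p = 1.7e-14, SE 0.11) and 4.37-fold in WT (2.13, edgeR adjusted p = 4.1e-13, SE 0.11).

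**Figure D3:**
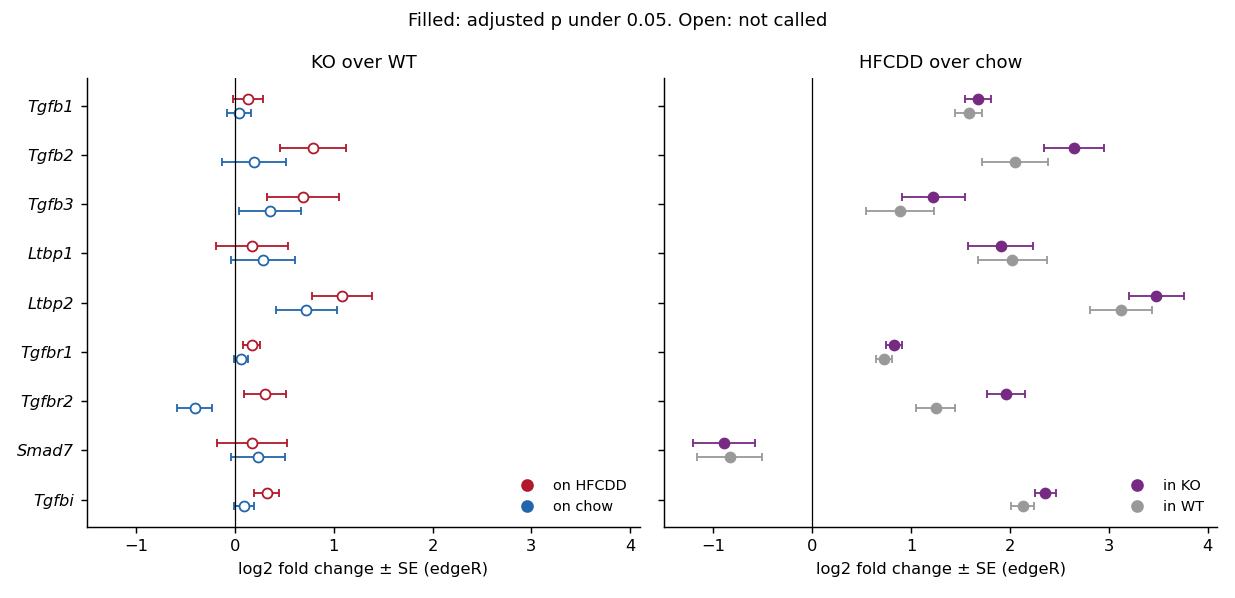
Log2 fold changes with their SE for the 9 genes, KO over WT on each diet (left) and HFCDD over chow in each genotype (right). Filled points are called: all 9 with diet in both genotypes (Smad7 lower, the others higher), and 0 of 9 with genotype on either diet.

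These transcripts come from whole liver, in which fewer cells of a type and less RNA per cell cannot be told apart. Marker lists moved with diet as well. Their counts stand beside 33.7% of all tested genes called higher and 36.0% lower in KO, and 29.0% and 33.6% in WT. The 10 markers of recruited macrophages were all called higher in both genotypes; their summed level ranged from 1297 to 1885 CPM in KO and 1210 to 1446 CPM in WT on HFCDD, and from 54.2 to 74.6 CPM in KO and 44.98 to 79.0 CPM in WT on chow. Of 12 stellate cell markers 9 were called higher and 1 lower in KO and 10 higher in WT, with sums of 1278 to 1503 CPM in KO and 1183 to 1339 CPM in WT on HFCDD, and 421.1 to 692.6 CPM in KO and 396.5 to 563.1 CPM in WT on chow. Of 10 portal fibroblast and mesothelium markers 7 were called higher in KO and 8 in WT, with sums of 111.9 to 189.9 CPM in KO and 79.3 to 100.2 CPM in WT on HFCDD, and 16.0 to 69.6 CPM in KO and 19.7 to 38.3 CPM in WT on chow. Of 9 cholangiocyte markers 8 were called higher in KO and 4 in WT, with sums of 574.4 to 824.6 CPM in KO and 214.9 to 256.1 CPM in WT on HFCDD, and 49.2 to 127.6 CPM in KO and 46.8 to 86.4 CPM in WT on chow. Krt19 stands in both of these lists. Hepatocyte markers were called lower for 6 of 8 in KO and 5 of 8 in WT. Of 8 Kupffer cell markers 6 were called higher in each genotype. Genes at 0 in every library of a group occurred only in the skeletal muscle and mucosa lists. The part of any of these cells in the changes of the 9 genes was not tested.

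The comparison the study was built on, KO against WT, was made on each diet. On HFCDD 0 of the 9 genes passed the test, against 0.319% of all tested genes called in either direction by edgeR (50 genes, and 1 to 75 when 1 library was left out). All 9 log2 fold changes were positive, with a median of 0.30 beside 0.01 over all tested genes. At an unadjusted p under 0.05 there were 3 of the 9 genes (Ltbp2, Tgfbi and Tgfb2) and 1562 of all genes. For 3 of the 9 (Tgfb2, Ltbp2 and Tgfbr2) every KO liver lay above every WT liver, which held for 4.96% of all tested genes.

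Ltbp2 had the largest difference, 19.0 CPM ± 6.10 in KO and 8.999 CPM ± 1.64 in WT (SD, n = 4 each), a log2 fold change of 1.08 (edgeR adjusted p = 0.16, SE 0.31). Its call depended on the fit. Ltbp2 passed with DESeq2 (1.08, adjusted p = 0.048), with limma-voom and sample quality weights (1.04, adjusted p = 0.001) and with edgeR on the HFCDD libraries alone (1.07, adjusted p = 0.021). It also passed with edgeR when KO chow replicates 1 and 7, which are not part of this comparison but share in its estimate of spread, were left out (1.08, adjusted p = 0.014), and without all 4 chow livers rich in mucosa markers (1.08, adjusted p = 0.0088). Without KO HFCDD replicate 2, the highest at 28.1 CPM, the difference was 0.83 (edgeR adjusted p = 0.43).

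Tgfb2 averaged 4.92 CPM ± 0.846 in KO and 2.84 CPM ± 0.689 in WT on HFCDD (SD, n = 4 each), a log2 fold change of 0.79 (edgeR adjusted p = 0.41, SE 0.33). Tgfb3 differed by 0.69 (edgeR adjusted p = 0.55, SE 0.36), Tgfbi by 0.32 (edgeR adjusted p = 0.37, SE 0.13) and Tgfbr2 by 0.30 (edgeR adjusted p = 0.70, SE 0.22). The approximate 95% intervals on the log2 scale ran from 0.14 to 1.44 for Tgfb2, from -0.02 to 1.40 for Tgfb3, from 0.08 to 0.57 for Tgfbi and from -0.12 to 0.73 for Tgfbr2. Tgfb1 differed by 0.13, with an interval from -0.16 to 0.43, and Tgfbr1 by 0.17, with an interval from -0.005 to 0.34. Ltbp1 differed by 0.17 with an interval from -0.55 to 0.89, and Smad7 by 0.17 with an interval from -0.52 to 0.86. The difference of Smad7 rested on KO HFCDD replicate 2 and was -0.28 without it (edgeR adjusted p = 0.87).

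Cholangiocyte markers differed between the genotypes on this diet: 6 of 9 were called higher in KO, and their summed level ranged from 574.4 to 824.6 CPM in KO and from 214.9 to 256.1 CPM in WT. Among all tested genes 0.319% were called in either direction. Portal fibroblast and mesothelium markers summed to 111.9 to 189.9 CPM in KO and 79.3 to 100.2 CPM in WT, with 0 of 10 called. KO HFCDD replicate 2 had the highest sum of its group in both lists, and also for hepatocyte (95040 CPM), stellate cell (1503 CPM) and recruited macrophage markers (1885 CPM). Its sums of sinusoidal endothelium (436.6 CPM) and neutrophil markers (18.4 CPM) were the lowest of the group. This liver had the highest level in its group of 7 of the 9 genes, all but Tgfb2 and Tgfbr1. Of 12 stellate cell markers 2 were called lower in KO and 0 higher, but 8 of the 12 log2 fold changes were positive. Their median was 0.14, beside 0.01 over all tested genes, and their sums ranged from 1278 to 1503 CPM in KO and 1183 to 1339 CPM in WT. Whether these cells had a part in the values of Ltbp2 or Tgfb2 was not tested.

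On chow 0 of the 9 genes passed the test between KO and WT, against 2.17% of all tested genes called in either direction by edgeR (340 genes, and 49 to 611 when 1 library was left out), and 2 of the 9 (Ltbp2 and Tgfbr2) and 2806 of all genes had an unadjusted p under 0.05. For 0 of the 9 did every KO liver lie above every WT liver, which held for 0.236% of all tested genes. With all livers, most log2 fold changes (8 of 9) were positive, as on HFCDD, with a median of 0.20 beside 0.01 over all tested genes. This rested on KO chow replicates 1 and 7. Without them Tgfb1 (-0.02), Tgfb2 (-0.51), Tgfb3 (-0.25), Ltbp1 (-0.45) and Tgfbr2 (-0.54) were negative. Ltbp2 (0.20), Tgfbr1 (0.05), Smad7 (0.24) and Tgfbi (0.02) stayed positive. Ltbp2 averaged 1.66 CPM ± 0.933 in 7 KO livers and 1.03 CPM ± 0.320 in 6 WT livers (SD), a log2 fold change of 0.72 (edgeR adjusted p = 0.22, SE 0.31). Without KO chow replicates 1 and 7 it was 0.20 (edgeR adjusted p = 0.78). Tgfbr2 averaged 16.7 CPM ± 2.78 in KO and 22.1 CPM ± 8.86 in WT (SD, n = 7 and 6), a log2 fold change of -0.41 (edgeR adjusted p = 0.23, SE 0.18). Of the alternatives run, it passed only without WT chow replicate 3, the lowest at 11.7 CPM (-0.54, edgeR adjusted p = 0.044), and it was -0.18 without WT chow replicate 6, the highest at 37.7 CPM. Without KO chow replicates 1 and 7 it was -0.54 (edgeR adjusted p = 0.17), and without the 4 chow livers rich in mucosa markers -0.65 (edgeR adjusted p = 0.059).

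For 4 of the genes the mean of KO livers on chow was set by KO chow replicates 1 and 7. Tgfb2 had 1.43 and 1.55 CPM in these 2 livers and at most 0.599 CPM in the other 5, Tgfb3 had 3.58 and 4.61 CPM against at most 1.91, Ltbp1 5.81 and 4.84 CPM against at most 1.94, and Ltbp2 3.20 and 2.65 CPM against at most 1.79. Without them the log2 differences between KO and WT became -0.51 for Tgfb2, -0.25 for Tgfb3 and -0.45 for Ltbp1, in place of 0.20, 0.35 and 0.28 with all livers (edgeR adjusted p between 0.30 and 0.80 in all 6 cases). Portal fibroblast and mesothelium markers summed to 69.6 and 68.3 CPM in the same 2 livers and to 16.0 to 24.1 CPM in the other 5. Tgfb1 (0.04), Tgfbr1 (0.06) and Tgfbi (0.09) had the smallest log2 differences of the 9 genes with all livers, with approximate 95% intervals from -0.21 to 0.29, -0.08 to 0.20 and -0.11 to 0.29.

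Whether the effect of genotype differed between the diets was tested directly as an interaction. edgeR called 0 of the 9 genes and 0% of all tested genes, 1581 of which had an unadjusted p under 0.05, while DESeq2 called 99 and limma-voom 10 of all genes, none of the 9 among them. Tgfbr2 was the 1 gene of the 9 with an unadjusted p under 0.05. KO minus WT was 0.30 on HFCDD and -0.41 on chow, a difference of 0.71 on the log2 scale (edgeR adjusted p = 0.39, SE 0.28, and 0.08 without the 4 chow livers rich in mucosa markers). The other 8 differences lay between -0.12 for Ltbp1 and 0.59 for Tgfb2, with 0.34 for Tgfb3 and 0.36 for Ltbp2. When KO chow replicates 1 and 7 were left out, the difference was 1.30 for Tgfb2 (edgeR adjusted p = 0.099), 0.945 for Tgfb3 (edgeR adjusted p = 0.28), 0.88 for Ltbp2 (edgeR adjusted p = 0.29) and 0.62 for Ltbp1 (edgeR adjusted p = 0.41).

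Within groups, the 9 genes fell into sets that did and did not vary together. After the group means were subtracted from log2 CPM, Tgfb2, Tgfb3, Ltbp1 and Ltbp2 correlated with each other over the 21 livers with Pearson r between 0.71 (Tgfb3 and Ltbp2) and 0.89 (Tgfb2 and Ltbp1). Tgfb1 had r between -0.07 and 0.13 with these 4 genes and 0.47 with Tgfbi. Tgfbr1 and Tgfbr2, whose proteins form 1 receptor complex, had r = 0.09. Without KO chow replicates 1 and 7 the 6 pairs of Tgfb2, Tgfb3, Ltbp1 and Ltbp2 had r between 0.40 and 0.65 over 19 livers. WT chow replicates 3 and 5, which also held mucosa markers, were kept among the 19. Replicate 3 deviated from its group mean by 0.53 for Tgfb2, 0.26 for Tgfb3, 0.79 for Ltbp1 and 0.60 for Ltbp2. Replicate 5 deviated by -0.23, -0.07, 0.32 and -0.45 for the same genes. The r values describe the libraries, since both genes of a pair share a library and its depth.

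**Figure D4:**
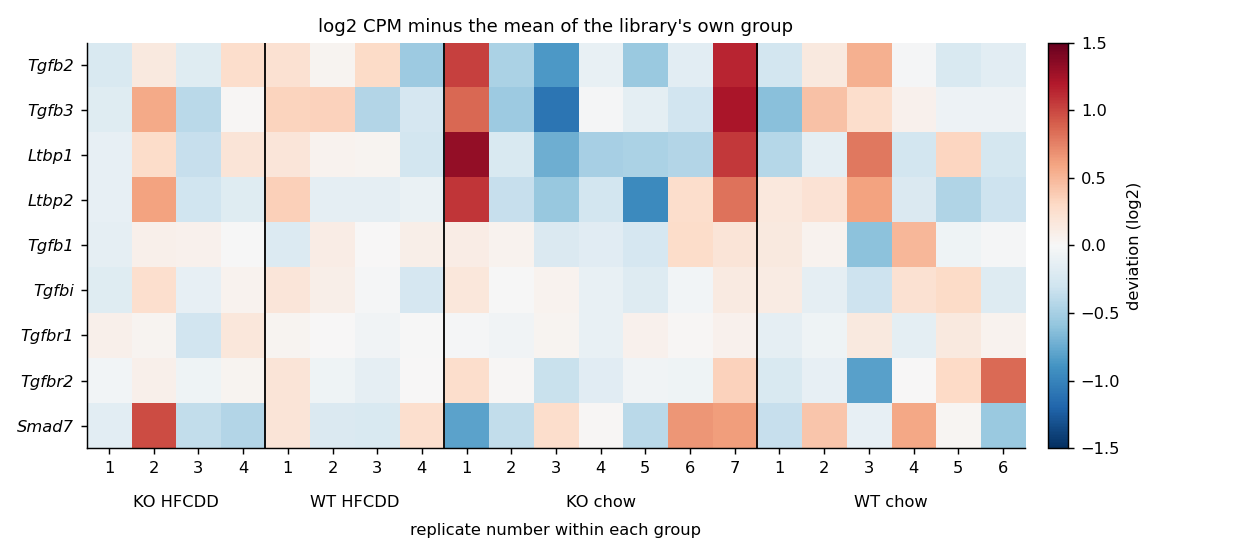
Deviation of log2 CPM from the mean of the library's own group, for each of the 9 genes (rows) and the 21 libraries (columns, by group and replicate number). Tgfb2, Tgfb3, Ltbp1 and Ltbp2 are high together in KO chow replicates 1 and 7, and Smad7 is high in KO HFCDD replicate 2.

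The transcripts most like each gene in this within-group measure differed between the sets. For Tgfb1 they were Ptgs1 (r = 0.89), Cyba (0.89), a subunit of the phagocyte NADPH oxidase, and Adgre1 (0.87), which encodes the macrophage antigen F4/80. For Ltbp1 they were Col6a2 (0.96), a collagen VI chain, Aqp5 (0.95) and Loxl1 (0.95), a lysyl oxidase of elastic fibres. For Tgfb2 they were Fbln1 (0.95), Vim (0.92), the intermediate filament of mesenchymal cells, and Gabra3 (0.92). For Smad7 they were Id1 (0.87) and Id3 (0.82), which are targets of bone morphogenetic protein (BMP) signalling, and Cirbp (0.82). For Tgfb3 they were Prrg3 (0.93), Emp1 (0.90) and Plxdc2 (0.90), for Ltbp2 Sobp (0.89), Adgrd1 (0.89) and Slc6a7 (0.88), and for Tgfbi Mamdc2 (0.79), Adcy3 (0.77) and Fabp5 (0.77). For Tgfbr1 they were Cnot1 (0.93), a subunit of the CCR4-NOT deadenylase, Ranbp2 (0.93) and Aff4 (0.90), and for Tgfbr2 Gtdc1 (0.89), Acsl4 (0.86) and Galnt18 (0.83). In a setting chosen after seeing the data, without KO chow replicates 1 and 7, r was 0.85 for Col6a2, 0.86 for Aqp5 and 0.85 for Loxl1 with Ltbp1, and 0.85 for Fbln1, 0.79 for Vim and 0.83 for Gabra3 with Tgfb2. Over all 21 livers without subtracting group means, r also carries the difference between diets, and there that of Aqp5 with Ltbp1 was 0.37. Slc6a7 with Ltbp2 (-0.37), and Ranbp2 (-0.50) and Aff4 (-0.43) with Tgfbr1, changed sign there. The other genes named had r of at least 0.52. The genes named were the highest of all tested genes by rule and carry no p.

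Other genes of the pathway were read from lists. For KO against WT on either diet, and for the interaction, 0 genes of any of these lists were called. Few genes were called at all: 0.319% of all tested genes on HFCDD, 2.17% on chow and 0% for the interaction. In lists of this size 0 calls therefore says little. With diet, 15 of 18 genes of latent complexes and their activation were called higher and 3 lower in KO, and 14 higher and 2 lower in WT, with median log2 fold changes of 1.48 and 0.92. The shares over all tested genes were 33.7% higher and 36.0% lower in KO, and 29.0% and 33.6% in WT. Dcn, decorin, which binds TGF-beta, averaged 660.2 CPM ± 62.3 in KO and 602.2 CPM ± 49.4 in WT on HFCDD, and 196.4 CPM ± 31.4 in KO and 163.1 CPM ± 18.4 in WT on chow. Its log2 fold changes with HFCDD were 1.75 in KO and 1.89 in WT. Emilin1, which restrains processing of the ligand precursor, rose by 1.57 in KO and 1.56 in WT, and Itgb5, an integrin subunit, by 0.98 and 0.88. Nrros, which anchors latent TGF-beta on myeloid cells, rose by 1.51 in KO and 1.74 in WT. Bmp1 (-0.78 in KO and -0.56 in WT), a protease that cleaves latent binding proteins, and Furin (-0.36 and -0.38), which cuts the ligand precursor, fell in both. On HFCDD, Itgb8 (log2 fold change 1.19 for KO over WT, edgeR adjusted p = 0.086), whose integrin releases active TGF-beta, and Fbn2 (1.96, edgeR adjusted p = 0.086), a fibrillin, had the smallest p of this list but did not pass.

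Of 5 co-receptor and pseudoreceptor genes tested, 4 were called higher with HFCDD in both genotypes: Acvrl1 (1.48 in KO and 1.80 in WT) and Eng (0.55 and 0.89), endothelial receptors of the family, Tgfbr3 (0.51 and 0.55), which presents the ligands, and Bambi (0.82 and 0.57), a decoy receptor. Of 18 Smads and intracellular regulators, 6 were called higher and 4 lower in KO, and 7 higher and 3 lower in WT, with medians of 0.09 and 0.16. The shares over all tested genes were 33.7% higher and 36.0% lower in KO, and 29.0% higher and 33.6% lower in WT. Smad2 rose by 0.66 in KO and 0.65 in WT, and Pmepa1, a target that encodes an inhibitor of the pathway, rose by 1.75 and 1.49. Smad3 differed by 0.13 and 0.18 and was not called. Smad6, an inhibitory Smad like Smad7, rose by 0.55 in KO and 0.71 in WT. Nedd4l, a ubiquitin ligase, fell by 1.03 in KO and by 0.96 in WT, and Ppm1a, a phosphatase of Smad2 and Smad3, fell by 0.53 and by 0.25.

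Of 27 transcripts known to be induced by TGF-beta, 21 were called higher and 1 lower with HFCDD in KO and 16 higher and 1 lower in WT, with medians of 1.68 and 1.38. Beside them stand 33.7% of all tested genes called higher and 36.0% lower in KO, and 29.0% and 33.6% in WT. Bgn, biglycan, averaged 409.0 CPM ± 12.8 in KO and 329.4 CPM ± 43.2 in WT on HFCDD, and 77.7 CPM ± 15.9 in KO and 68.9 CPM ± 8.80 in WT on chow. Its log2 fold changes were 2.40 in KO and 2.26 in WT, and those of Sparc, a matricellular protein, 2.71 and 2.38. Loxl2, a collagen cross-linking enzyme, rose by 2.80 and 2.90, and Timp1, an inhibitor of metalloproteinases, rose by 5.22 in KO, to 7.16 CPM ± 1.48 on HFCDD (SD, n = 4) against 0.176 CPM ± 0.176 on chow (SD, n = 7). Col1a1, a chain of collagen I, rose by 3.75 in KO and 4.20 in WT. The exceptions were named after their values were seen: Fn1, fibronectin, fell by 0.62 in KO and by 0.61 in WT. Acta2, the smooth muscle actin of myofibroblasts (-0.15 in KO and -0.28 in WT), Junb (0.05 and 0.09), Cdkn1a, a cell cycle inhibitor (-0.45 and -0.19), Ccn2 (0.64 and 0.82) and Ccn1 (0.51 and 0.62) were not called in either genotype. The SE of Acta2 was 0.855 in KO and 0.911 in WT. Smooth muscle markers summed to 79.6 and 53.3 CPM in KO chow replicates 1 and 7 and 53.1 CPM in WT chow replicate 3. They summed to 6.88 to 19.5 CPM in the other chow livers and 12.4 to 17.3 CPM on HFCDD. With this spread the change of Acta2 with diet stays undetermined. Between KO and WT on HFCDD, 22 of the 27 were positive with a median of 0.36, beside 0.01 over all tested genes. On chow 23 of the 27 were positive with a median of 0.33, beside 0.01 over all tested genes. The list was not read again without KO chow replicates 1 and 7. Portal fibroblast and mesothelium markers, like those of smooth muscle, were high there (69.6 and 68.3 CPM). How far these 2 livers set the values of the list on chow is therefore not known. The median of the interaction was -0.02. On HFCDD Itgb6 (2.04, edgeR adjusted p = 0.16) and Sparc (0.56, edgeR adjusted p = 0.18) had the smallest p. Thbs1, Itgb6, Skil and Pmepa1 stand in more than 1 pathway list, and Dcn stands in the latent complex list and among the stellate cell markers.

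**Figure D5:**
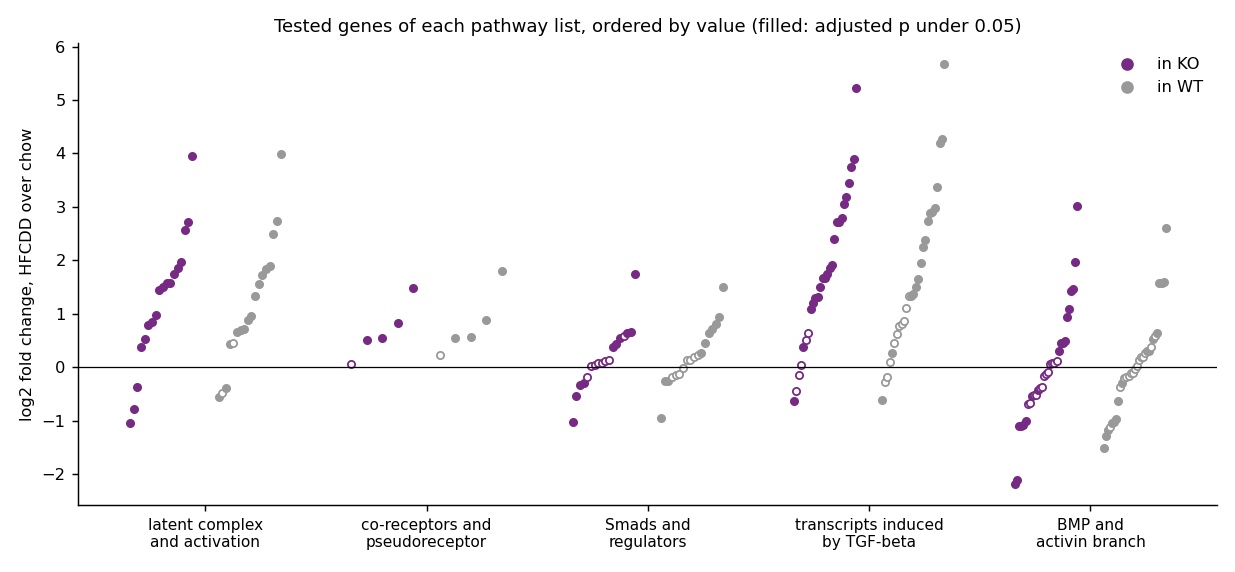
Log2 fold change of HFCDD over chow for each tested gene of 5 pathway lists, in KO and in WT, ordered by value within a list. Most genes of the latent complex list (15 of 18 in KO) and of the induced transcripts (21 of 27 in KO) are called higher, while 10 of 31 genes of the BMP and activin list are called higher and 8 lower in KO, beside 33.7% and 36.0% of all tested genes.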

How the data were processed

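RNA-seq of whole liver was analysed from 21 libraries. The authors deposited raw read counts per gene symbol, with no normalization. The build GRCm38 and the tools STAR 2.6.1d, CASAVA 2.17 and featureCounts 1.6.1 are named without roles, per the submitters' processing notes. The annotation release, strand setting and filters are not given in the sources used here. Exon lengths came from GENCODE M21 on GRCm38, in which all 55418 symbols were found, and promoters from RefSeq on GRCm38.p6, which held 7 of the 9 genes in a form that could be searched or shown.

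Counts were tested with edgeR 4.0.16 (limma 3.58.1, R 4.3.3): filterByExpr, TMM scaling, and 1 quasi-likelihood model of 4 group means over all 21 libraries, with no covariate and with 5 contrasts. A call is an adjusted p (Benjamini-Hochberg, all 15677 genes tested) under 0.05. The SE was taken as the log2 fold change over the root of its F statistic, and approximate 95% intervals use the SE. log2 CPM used a prior count of 2. Ratios within a library used counts plus 0.5 and two-sided exact permutation tests (scipy 1.17.1), adjusted over the 12 tests. A pairwise check of libraries within groups found 0 identical pairs among 48. Per library, the members held 6 reads (Tgfb2 on chow) to 6033 reads (Tgfbi on HFCDD), which limits the precision of the low ones.

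Groups came from the labels, and replicate numbers only name livers in accession order. Members, lists and tests were chosen with earlier results of these data known. The rule named all 9 genes and, of each pathway list, up to 4 called genes with the smallest p (otherwise the 2 with the smallest p), and the 3 genes most like each member. Other genes (Bmp1, Furin, Smad3, Fn1, Col1a1, Acta2, Junb, Cdkn1a, Ccn1, Ccn2 and values given for the second genotype) were chosen after their values were seen. The alternatives tried were limma-voom with quality weights per sample, DESeq2 1.42.0, upper-quartile or RLE scaling, library totals alone, no low-count filter, at least 1 CPM in 4 libraries, an added log2 threshold of 1, fits to the groups compared, counts plus 1 in the ratios, and leaving out each library, KO chow replicates 1 and 7, or all 4 chow libraries rich in Dmbt1. Likeness without KO chow replicates 1 and 7 was added after seeing the data. Where an alternative leaves out a library, the low-count filter was applied again.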

Additional observations from a re-analysis of the deposited data

Results flagged for a closer look

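Among 36 combinations of the 9 genes and 4 groups, 3 had a library that stood apart from its group by Dixon's test at the 95% level, where chance flags about 1 in 20. Smad7 in KO HFCDD replicate 2 had 24.1 CPM, with the nearest other KO HFCDD liver at 10.9 CPM. Ltbp2 in the same liver had 28.1 CPM, with the nearest at 16.9 CPM. Ltbp2 in WT HFCDD replicate 1 had 11.5 CPM, with the nearest WT HFCDD liver at 8.31 CPM.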

How the results depend on the processing

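The count of the 9 genes called with diet ran from 7 to 9 in KO and from 6 to 9 in WT over all alternatives, and 0 were called for the interaction in any. For KO against WT on HFCDD, 1 gene (Ltbp2) was called in place of 0 with DESeq2, with limma-voom, with only the groups compared, without KO chow replicates 1 and 7 and without the 4 chow libraries rich in Dmbt1, and 0 under every other alternative. For KO against WT on chow, leaving out 1 library gave 0 to 1 called. The count over all genes ran far more widely for KO against WT on HFCDD: 50 in the reported fit, 193 with DESeq2, with limma-voom 2.05% of the genes tested, 296 with only the groups compared, 141 without KO chow replicates 1 and 7, 175 without the Dmbt1-rich libraries, 32 with RLE scaling, 1 to 75 with 1 library left out, and 28 both with upper-quartile scaling and with no low-count filter. On chow it was 340 in the reported fit, 713 with DESeq2, 113 with limma-voom, 221 with library totals alone, 44 with the log2 threshold, 2 with only the groups compared, 144 without KO chow replicates 1 and 7, 189 without the Dmbt1-rich libraries and 49 to 611 with 1 library left out. For the interaction it was 0, 99 with DESeq2, 10 with limma-voom, 5 with no low-count filter, 84 without KO chow replicates 1 and 7, 62 without the Dmbt1-rich libraries and 0 to 8 with 1 library left out. With the log2 threshold the diet counts were 5180 in KO and 4409 in WT. The cause was not tested.

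Directions changed as follows, none of them in a called result. On chow, KO against WT turned to -0.021 for Tgfb1, -0.51 for Tgfb2, -0.25 for Tgfb3 and -0.45 for Ltbp1 without KO chow replicates 1 and 7. Without the Dmbt1-rich libraries they turned to -0.17 for Tgfb1, -0.41 for Tgfb2, -0.22 for Tgfb3 and -0.10 for Ltbp1, and with limma-voom Tgfb2 turned to -0.10. The interaction of Ltbp1 turned to 0.022 with limma-voom, 0.62 without KO chow replicates 1 and 7 and 0.27 without the Dmbt1-rich libraries. Without KO chow replicates 1 and 7 the ratio of Tgfb3 to Tgfb1 turned to -0.26 for KO against WT on chow and to 0.066 for HFCDD against chow in KO. Leaving out 1 library at a time gave, on chow, -0.061 to 0.17 for Tgfb1, -0.065 to 0.34 for Tgfb2 and -0.033 to 0.49 for Ltbp1, and on HFCDD -0.28 to 0.32 for Smad7. For the interaction it gave -0.052 to 0.19 for Tgfb1, -0.32 to 0.20 for Ltbp1 and -0.51 to 0.090 for Smad7. For KO against WT on chow the ratio of Tgfb2 to Tgfb1 ran from -0.27 to 0.14, that of Tgfb3 to Tgfb1 from -0.073 to 0.28, and that of Tgfbr1 to Tgfbr2 from 0.24 to 0.59, the last without WT chow replicate 3 (exact permutation test, adjusted p = 0.03). No paired analysis was possible because replicate numbers here only name livers.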

Other observations

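The BMP and activin branch, which shares receptors and Smads of the wider family, was also read with diet. Of its 31 tested genes, 10 passed as higher and 8 as lower in KO, and 8 as higher and 8 as lower in WT, beside 33.7% higher and 36.0% lower of all tested genes in KO and 29.0% and 33.6% in WT, with median log2 fold changes of -0.13 and -0.03. Fstl1, a follistatin-like secreted protein, averaged 54.6 CPM ± 7.31 in KO and 30.2 CPM ± 3.17 in WT on HFCDD (SD, n = 4 each), and 6.73 CPM ± 3.10 in 7 KO and 4.95 CPM ± 0.865 in 6 WT livers on chow. It rose by 3.01 in KO and 2.61 in WT on the log2 scale. Gdf2, which encodes BMP9 and is made in the liver, rose by 1.43 in KO and 1.60 in WT, and Bmp5 by 1.46 and 1.58. Chrd, chordin, a BMP antagonist, fell by 2.19 in KO and by 1.52 in WT. For KO against WT, Fstl1 on HFCDD (log2 fold change 0.85, edgeR adjusted p = 0.17) and Gdf15 on chow (1.08, edgeR adjusted p = 0.091) had the smallest p of the list and did not pass. For the interaction, Inhbc (-1.07, edgeR adjusted p = 0.24) and Gdf15 (-1.60, edgeR adjusted p = 0.29) had the smallest p of the list.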
